A study of Mus musculus with 12 samples.

Results

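The 10 genes of amino acid and glutathione metabolism described here were followed in mouse follicular B cells: Asns, Bcat1, Bcat2, Chac1, Cth, Cbs, Got1, Pycr1, Aldh18a1 and Gpt2. They were taken as every probe set that the array annotation assigns to one of the 10 symbols alone, whatever its signal. Probe sets annotated to several symbols were left out. Of the 10 genes, 9 had at least 1 such probe set, 20 in all of the 45101 on the array, and the expression of Pycr1 was not analysed here. Of the 9, 8 passed a filter on low signal and stood among the 12190 genes tested, and 15 of the 20 probe sets passed it.

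The cells were splenic follicular B cells of 8-week-old male 129SvEv mice, sorted as B220+, AA4.1-, CD23 high and CD21 intermediate. The mice were labelled ZFXcko (cko below) or ZFXwt (wild type). Zfx is an X-linked zinc-finger transcription factor, and the sources used here do not give how, or in which cells, it was deleted. After sorting, the cells were kept for 0, 2 or 12 h with 10 µg/mL of anti-IgM, which binds and engages the B cell receptor. The groups were cko at 0, 2 and 12 h and wild type at 0, 2 and 12 h, with 2 arrays each.

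Cells short of amino acids or under other stresses raise the transcription factor ATF4, which binds composite C/EBP-ATF response elements in its target genes. Its targets include enzymes that make non-essential amino acids. ASNS makes asparagine from aspartate, and ALDH18A1 and PYCR1 work in the path that leads to proline. BCAT1 in the cytosol and BCAT2 in mitochondria transfer the amino group of leucine, isoleucine and valine. GOT1 is the cytosolic aspartate aminotransferase of the malate-aspartate shuttle and GPT2 the mitochondrial alanine aminotransferase. CBS and CTH carry sulfur from homocysteine to cysteine, and CHAC1 breaks down glutathione inside the cell.

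Because a shared promoter element is part of what is known of these genes, their promoter windows in RefSeq (mouse build GRCm38.p6, 250 bases before to 50 after each annotated start) were searched for the core of that element, TGATGNAA, on both strands. Windows were held for 9 of the 10 genes, Cth not among them. The letters were found in 4 of these 9 genes, Asns, Chac1, Got1 and Pycr1, and in 1219 of all 27025 genes with a window (4.51%). The stretches around the 4 matches are shown 5′ to 3′ on the gene's strand, with the match in capitals. In Chac1 and Got1 the match lies on the opposite strand and reads as its reverse complement.
Asns: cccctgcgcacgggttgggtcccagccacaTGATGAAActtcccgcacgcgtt
Chac1: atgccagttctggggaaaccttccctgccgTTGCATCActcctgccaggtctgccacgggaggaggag
Got1: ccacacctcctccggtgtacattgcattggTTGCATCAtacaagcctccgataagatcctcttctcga
Pycr1: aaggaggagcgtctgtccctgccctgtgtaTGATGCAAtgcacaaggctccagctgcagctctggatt
The Asns stretch is chr6:7693210-7693262 on the minus strand, and its match begins 23 bases before the annotated start. The Chac1 stretch is chr2:119351019-119351086 on the plus strand, with the match beginning 193 bases before the start. The Got1 stretch is chr19:43524670-43524737 on the minus strand (match from 102 bases before the start), and the Pycr1 stretch is chr11:120643814-120643881 on the minus strand (match from 103 bases before it). Each lies upstream of the annotated start. Both windows of Bcat1, both of Bcat2 and those of Cbs, Aldh18a1 and Gpt2 held no such letters. A match is a description of the sequence, and no binding was measured.

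Values are linear signals scaled by the authors, 1 per probe set and array. Differences are between group means of log2(signal + 16), cko minus wild type or later minus 0 h, given ± SE with n = 2 arrays a group, so fold changes of dim genes are understated. Adjusted p is from limma with Benjamini-Hochberg adjustment over the 12190 genes, and a gene is called higher, lower, risen or fallen at an adjusted p under 0.05. Per the series' design text the labelled RNA was hybridized in duplicate, and nothing says that duplicates came from different mice. The p-values therefore reflect array-to-array spread, possibly technical alone, and the number of arrays limits the precision.

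Several facts of the whole series bear on what follows. The signal of Zfx, on the brightest of its 4 probe sets, was above wild type in cko at each time (log2 difference 1.23 ± 0.09 at 0 h, 0.32 ± 0.09 at 2 h and 0.38 ± 0.09 at 12 h), and since the position of the deletion is unstated in the labels it does not check the genotype. Of the other 3 probe sets, all dim, 1 was also above wild type at each time, 1 was above it at 0 h and 12 h only, and 1 was below it at each time (means of 52.7, 71.1 and 30.2 in cko and 72.6, 83.3 and 45.0 in wild type at 0, 2 and 12 h). The 5′ signal of the actin control was 1.80 to 3.33% of its 3′ signal on the cko 0 h, wild-type 0 h and wild-type 12 h arrays, and 8.41 to 19.1% on the cko 2 h, cko 12 h and wild-type 2 h arrays. Setting cko against wild type therefore stays on one side of this division at 0 h and at 2 h, and crosses it at 12 h (19.0% on cko arrays and 2.19% on wild-type arrays). Of 8 follicular B cell markers, 7 had a probe set and all 7 passed the filter, and their summed group signal was 22250 to 73120 in cko and 23690 to 62820 in wild type. The 8 myeloid markers, 7 of them above the filter and S100a8 the brightest, had a lower sum in cko at each time. It was 9623, 2886 and 3725 in cko at 0, 2 and 12 h, against 21450, 16400 and 8106 in wild type. Not every marker was lower, as Csf1r at 0 h was 1591 in cko and 829.1 in wild type. The 7 T and NK cell markers summed to 361.9 to 1094 in cko and 301.6 to 994.8 in wild type. The 4 plasma cell markers summed to 8239 to 8801 in cko and 4926 to 10040 in wild type, and the 2 erythroid markers with a probe set to 43.1 to 124.4 in cko and 210.4 to 294.5 in wild type. No marker with a probe set was listed at 0. The part of these other cells in the results was not tested. A fit with a term for the control division is given with the averages over times and genotypes, and it cannot separate the division from them. In bulk RNA fewer cells of a type and less RNA per cell cannot be told apart.

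On the arrays labelled cko, most of these enzymes were higher at every time. Chac1, Asns, Bcat1, Aldh18a1 and Gpt2, 5 of the 8 tested genes, were higher at 0, 2 and 12 h, against 304 of all 12190 genes (2.49%). The genes were chosen with earlier results of these data known, so the shares here are a description and not an independent test. At 0 h 5 of 8 were higher and 0 lower, where 16.3% of all genes were called higher and 32.3% were called in either direction. At 2 h 6 were higher and 0 lower (12.8% of all genes called higher, 28.5% in either direction), and at 12 h 7 were higher and 0 lower (21.4% of all genes called higher, 29.9% lower and 51.3% in either direction). The median log2 difference of the 8 was 0.96, 1.25 and 1.27 at 0, 2 and 12 h, beside 0.02, -0.02 and -0.17 for all genes. Cbs was the one tested gene that was not called between the genotypes at any time.

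**Figure D1:**
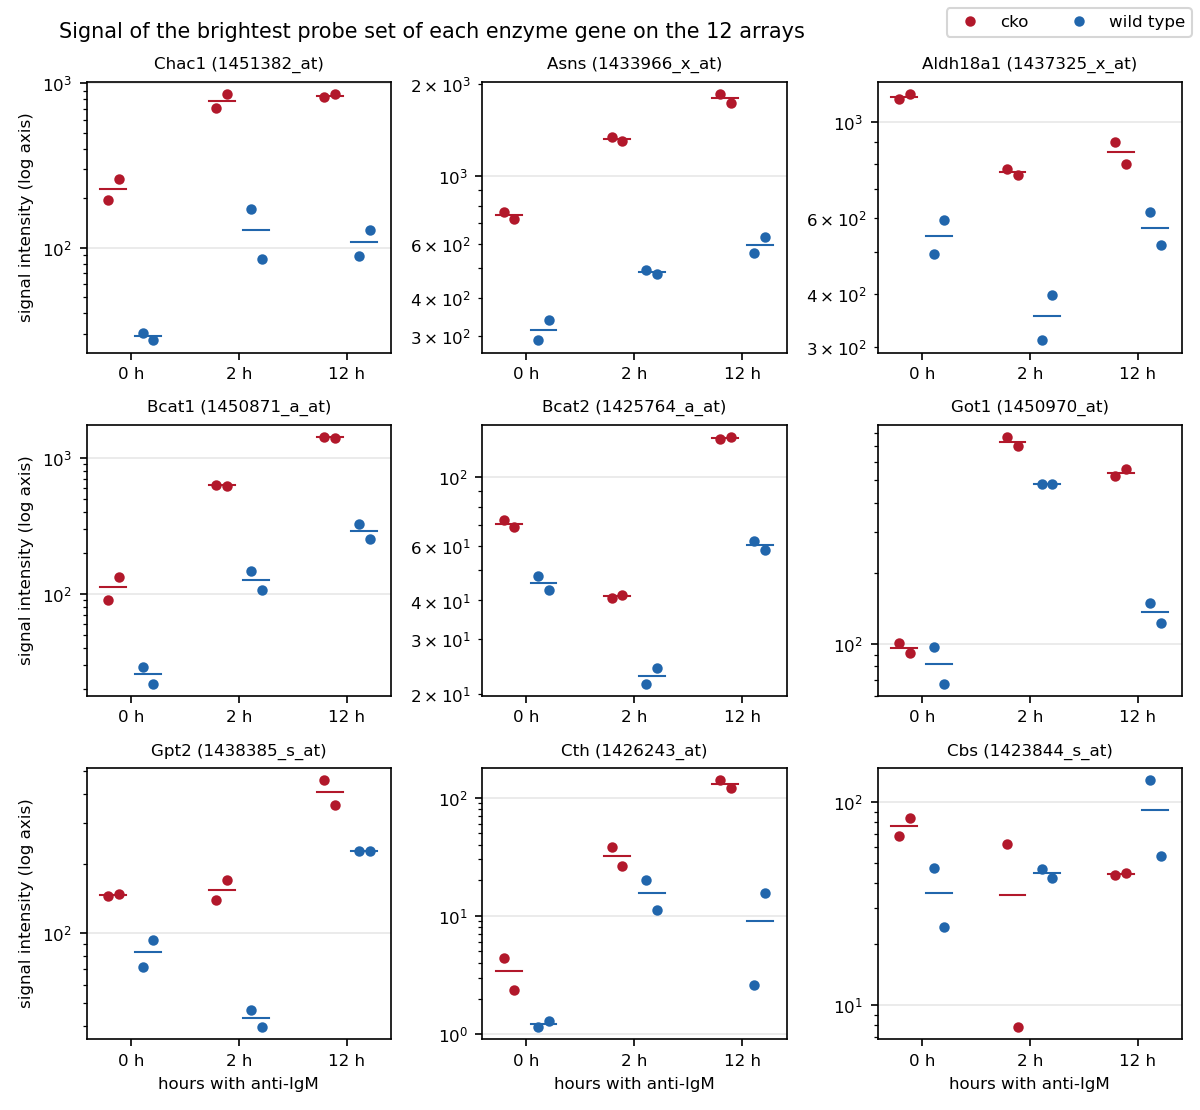
Signal intensity (log axis) of the brightest probe set of the 9 measured genes on each of the 12 arrays, by hours with anti-IgM, with cko in red at the left and wild type in blue at the right of each time; points are arrays and lines are group means (n = 2). The cko points of Chac1, Asns, Bcat1, Aldh18a1, Bcat2 and Gpt2 lie above the wild-type points at each time, while those of Cbs do not.

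Chac1, the glutathione-degrading enzyme, showed the largest genotype difference of the 8 at each time. Its signal at 0 h was 193.7 and 260.4 on the cko arrays, against 30.5 and 27.3 on the wild-type arrays. After 2 h it was 704 and 860.3 on the cko arrays, against 170.7 and 85.5 in wild type, and at 12 h 820.4 and 855.9 in cko, against 89.1 and 127.2 in wild type. The groups did not overlap at any time, and every cko array, including those at 0 h, exceeded every wild-type array, including those after 12 h. The differences were 2.42 ± 0.25 (adjusted p = 9.7e-06), 2.53 ± 0.25 (adjusted p = 7.5e-06) and 2.80 ± 0.25 (adjusted p = 4.3e-07) at 0, 2 and 12 h.

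Chac1 rose with anti-IgM in both genotypes. The 2 h response was 1.72 ± 0.25 in cko and 1.62 ± 0.25 in wild type, and the 12 h response 1.83 ± 0.25 in cko and 1.45 ± 0.25 in wild type. The difference between the genotypes' responses was 0.11 ± 0.35 at 2 h and 0.38 ± 0.35 at 12 h, and neither was called (adjusted p = 0.88 and 0.42). With a pseudocount of 64 the 12 h difference was 0.76 and was called (adjusted p = 0.033), and it was 0.15 to 0.60 with 1 array left out. In the order of its group levels, wild type at 12 h and 2 h did not differ beyond their spread (gap 0.17, SE 0.25), nor did cko at 2 h and 12 h (gap 0.10, SE 0.25).

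Asns, asparagine synthetase, was read by 2 probe sets above the filter, and both were higher in cko at every time. The brighter, 1433966_x_at, whose suffix marks probes that may also match other transcripts, read 764.9 and 725.9 on the cko arrays at 0 h, against 290.4 and 338.5 on the wild-type arrays. With 2 h of anti-IgM it read 1345 and 1297 in cko, against 492.3 and 478.6 in wild type. At 12 h it read 1855 and 1729 in cko, against 559.7 and 630.2 in wild type. On this probe set the cko cells before stimulation were above wild-type cells after 12 h of it. The differences were 1.21 ± 0.10, 1.42 ± 0.10 and 1.57 ± 0.10 at 0, 2 and 12 h (adjusted p = 1.3e-06, 2.8e-07 and 1.1e-08), and all 6 group levels differed beyond their spread, from wild type at 0 h up to cko at 12 h. With anti-IgM it rose at 2 h by 0.81 ± 0.10 in cko and 0.61 ± 0.10 in wild type, and at 12 h by 1.25 ± 0.10 in cko and 0.89 ± 0.10 in wild type.

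The other Asns probe set, 1451095_at, differed less between the genotypes at 0 h and more at 12 h. It read 348.8 and 370.3 on the cko arrays at 0 h, against 262.4 and 268.4 on the wild-type arrays. At 12 h it read 1995 and 1936 in cko, against 494.3 and 427.1 in wild type, so that here cko at 0 h lay below wild type at 12 h. With every probe set tested, its differences were 0.42 ± 0.10, 1.49 ± 0.10 and 2.06 ± 0.10 at 0, 2 and 12 h. Its response to anti-IgM was larger in cko than in wild type by 1.07 ± 0.13 at 2 h (adjusted p = 0.00013) and by 1.64 ± 0.13 at 12 h (adjusted p = 3.9e-07). On the brighter probe set the same differences between responses were 0.21 ± 0.14 at 2 h, not called, and 0.36 ± 0.14 at 12 h. The size of the genotype difference in the response of Asns thus depended on the probe set read.

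Aldh18a1 makes the glutamate-derived intermediate from which proline is built, and on its brightest probe set it was higher in cko at each time. The suffix of this probe set, 1437325_x_at, again marks probes that may also match other transcripts. It read 1129 and 1164 on the cko arrays at 0 h, against 494.1 and 593.3 on the wild-type arrays. At 2 h it read 778.4 and 753.5 in cko, against 311.5 and 397.8 in wild type, and at 12 h 900.9 and 801.4 in cko, against 617.4 and 517.4 in wild type. Every cko array exceeded every wild-type array. The genotype differences were 1.06 ± 0.13, 1.09 ± 0.13 and 0.57 ± 0.13 (adjusted p = 3.8e-05, 3.7e-05 and 0.0018). With probe sets averaged the 0 h value was 0.68, and under median scaling the 12 h value was 0.89, both still called.

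With anti-IgM Aldh18a1 fell at 2 h by 0.57 ± 0.13 in cko and by 0.60 ± 0.13 in wild type on that probe set. At 12 h it was lower than at 0 h in cko (-0.42 ± 0.13) and not called in wild type (0.06 ± 0.13). Under median scaling the 2 h value in cko was -0.16 and the 12 h value in cko -0.01, and neither was called. With probe sets averaged, the 2 h values were -0.14 in cko and -0.19 in wild type, not called, and the 12 h value in cko was 0.03. The 12 h call in cko was also lost without cko 0 h replicate 2 (-0.40) or cko 12 h replicate 2 (-0.34). Another 3 probe sets passed the filter. One of them, 1435855_x_at, was higher in cko at 0 h and 2 h (0.94 ± 0.19 and 0.73 ± 0.19) and another, 1415836_at, at 12 h alone (0.98 ± 0.37), while 1437333_x_at was not called at any time. The first of these rose in wild type at 12 h (0.59 ± 0.19) and did not show the falls at 2 h (-0.28 ± 0.19 in cko and -0.07 ± 0.19 in wild type, not called). The last probe set, 1437620_x_at, lay under the filter, with group means of 12.5 to 37.2 in cko and 2.4 to 9.5 in wild type.

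Bcat1, the cytosolic branched-chain aminotransferase, showed the largest rise of the 8 genes after 12 h of anti-IgM in each genotype. Its brightest probe set read 89.4 and 133.4 on the cko arrays at 0 h, against 29.2 and 21.9 on the wild-type arrays. By 2 h it read 635.4 and 625.6 in cko, against 146.2 and 105.9 in wild type, and at 12 h 1424 and 1411 in cko, against 328.2 and 254.5 in wild type. The groups were separate at each time, and cko cells at 0 h did not differ beyond the spread from wild-type cells at 2 h (gap 0.16, SE 0.19). The genotype differences were 1.60 ± 0.19, 2.20 ± 0.19 and 2.23 ± 0.19 (adjusted p = 3.8e-05, 3.1e-06 and 3.4e-07). With the gene's probe sets averaged they were 1.37 at 2 h and 1.06 at 12 h, and with a pseudocount of 64 the 0 h value was 0.96, all still called.

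Bcat1 rose with anti-IgM in both genotypes on this probe set. The rise at 2 h was 2.37 ± 0.19 in cko and 1.77 ± 0.19 in wild type, and that at 12 h 3.51 ± 0.19 in cko and 2.88 ± 0.19 in wild type. With probe sets averaged the rises in cko were 1.11 at 2 h and 1.76 at 12 h. The difference between the responses was not called (0.60 ± 0.27 at 2 h and 0.63 ± 0.27 at 12 h). It was called with a pseudocount of 64 (0.92 at 2 h and 1.11 at 12 h), at 12 h under median scaling (1.07), and at 12 h in the opposite direction with probe sets averaged (-0.76). Leaving out cko 0 h replicate 2 also gave a call at both times (0.85 and 0.88), and leaving out wild-type 12 h replicate 1 one at 12 h (0.80). The dimmer probe set 1455699_at behaved otherwise. It read 79.4 and 104.7 on the cko arrays at 0 h, against 5.0 and 16.1 in wild type, but 85.2 and 97.4 in cko at 12 h, against 74.1 and 131.6 in wild type. Its genotype difference was called at 0 h (2.05 ± 0.29) and not at 2 h (0.54 ± 0.29) or 12 h (-0.11 ± 0.29), and it rose in wild type at 2 h (1.37 ± 0.29) and 12 h (2.15 ± 0.29) and was not called in cko (-0.14 ± 0.29 and -0.002 ± 0.289). The difference between the responses was called on this probe set, smaller in cko at 2 h (-1.51 ± 0.41) and 12 h (-2.15 ± 0.41), opposite in sign to the brighter one. The remaining probe set lay under the filter, with group means of 2.6 to 10.8.

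Bcat2, the mitochondrial enzyme of the pair, was measured by 1 dim probe set and differed less. It read 72.5 and 68.9 on the cko arrays at 0 h, against 47.9 and 43.3 on the wild-type arrays. After 2 h it read 40.7 and 41.7 in cko, against 21.6 and 24.2 in wild type, and at 12 h 132.5 and 134.6 in cko, against 62.1 and 58.4 in wild type. Duplicates were close and the groups did not overlap, yet only the 12 h difference of 0.97 ± 0.22 was called (adjusted p = 0.0020), with 0.49 ± 0.22 at 0 h and 0.56 ± 0.22 at 2 h. The SE combines the gene's own spread with that of genes of like signal. Without that intensity trend the differences at 0 h and 2 h were called too (adjusted p = 0.0038 and 0.0026).

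**Figure D2:**
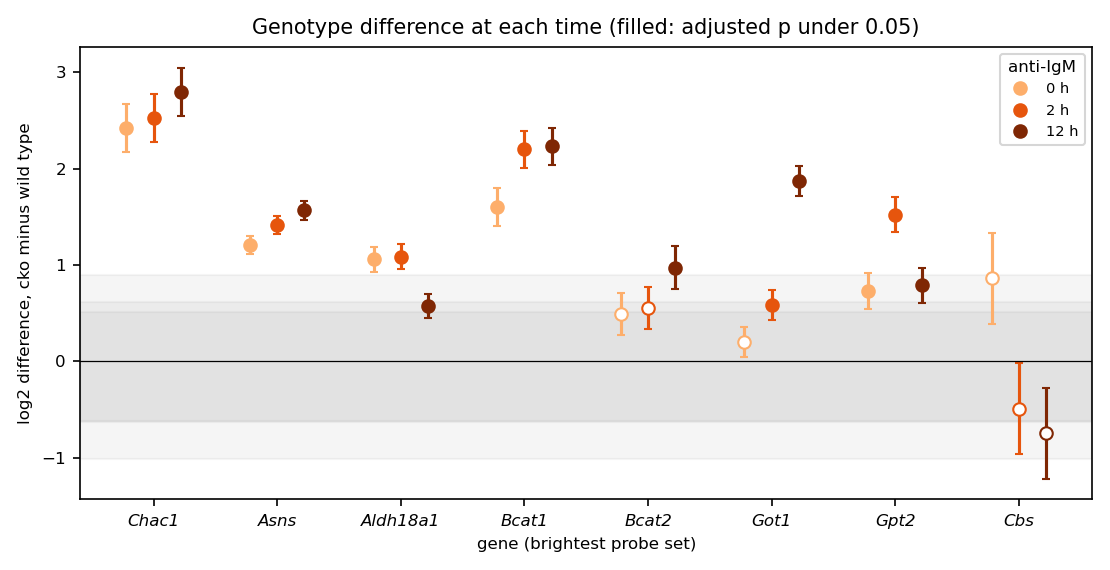
Log2 difference (cko minus wild type) of the 8 tested genes at 0, 2 and 12 h of anti-IgM, with bars of 1 SE; filled points have an adjusted p under 0.05, and the overlaid grey bands span the 10th to 90th percentile of all 12190 genes at each time, the widest being that at 12 h. Chac1, Asns and Bcat1 lie above these bands at each time, and the Cbs points fall on both sides of 0.

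Got1, the cytosolic aspartate aminotransferase, was not called between the genotypes before stimulation and differed by the most after 12 h. It read 100.7 and 91.3 on the cko arrays at 0 h, against 97.0 and 67.6 on the wild-type arrays, with overlap. With 2 h of anti-IgM it read 766.9 and 699.1 in cko, against 483.9 and 482.4 in wild type. At 12 h it read 521.6 and 557.7 in cko, against 149.7 and 122.9 in wild type. The signal was high at 2 h in both genotypes, and at 12 h it was high on the cko arrays alone.

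The Got1 differences were 0.20 ± 0.16 at 0 h (adjusted p = 0.36), 0.58 ± 0.16 at 2 h (adjusted p = 0.013) and 1.87 ± 0.16 at 12 h (adjusted p = 2.4e-07). The call at 2 h was lost without wild-type 2 h replicate 1 (0.59) or 2 (0.58) or cko 2 h replicate 1 (0.52). Got1 rose at 2 h by 2.74 ± 0.16 in cko and 2.36 ± 0.16 in wild type, and at 12 h by 2.31 ± 0.16 in cko and 0.64 ± 0.16 in wild type. The wild-type call at 12 h was lost without wild-type 0 h replicate 2 (0.42) and in a fit of the compared groups alone. The 12 h response was larger in cko by 1.67 ± 0.22 (adjusted p = 3.3e-05), where 18.8% of all genes were called in that direction. This comparison crosses the actin control division.

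Gpt2, the mitochondrial alanine aminotransferase, was higher in cko at each time on its brightest probe set. It read 145.3 and 148.6 on the cko arrays at 0 h, against 71.8 and 94.0 on the wild-type arrays. At 2 h it read 139.2 and 169.8 in cko, against 46.8 and 39.6 in wild type, and at 12 h 457.1 and 357.3 in cko, against 227.6 and 226.5 in wild type. The groups did not overlap, and the lead of cko was widest at 2 h, when wild type was at its lowest. The differences were 0.73 ± 0.18, 1.52 ± 0.18 and 0.79 ± 0.18 (adjusted p = 0.0082, 4.5e-05 and 0.0025). The call at 0 h was lost without wild-type 0 h replicate 1 (0.57) and with the mean of the gene's probe sets (0.46).

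At 2 h Gpt2 fell in wild type by 0.73 ± 0.18 and was not called in cko (0.06 ± 0.18). At 12 h it rose in both, by 1.37 ± 0.18 in cko and 1.31 ± 0.18 in wild type. The probe set 1455007_s_at, dimmer, was higher in cko at 2 h (0.98 ± 0.32) and 12 h (1.46 ± 0.32) and not called at 0 h (0.85 ± 0.32). It did not show the fall of wild type at 2 h (0.70 ± 0.32, not called), and it rose in cko at 2 h (0.83 ± 0.32, called). With probe sets averaged, neither the wild-type fall (-0.36) nor a change in cko (0.27) was called at 2 h. Probe set 1439029_at was not called between the genotypes at any time, and the remaining one lay under the filter.

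**Figure D3:**
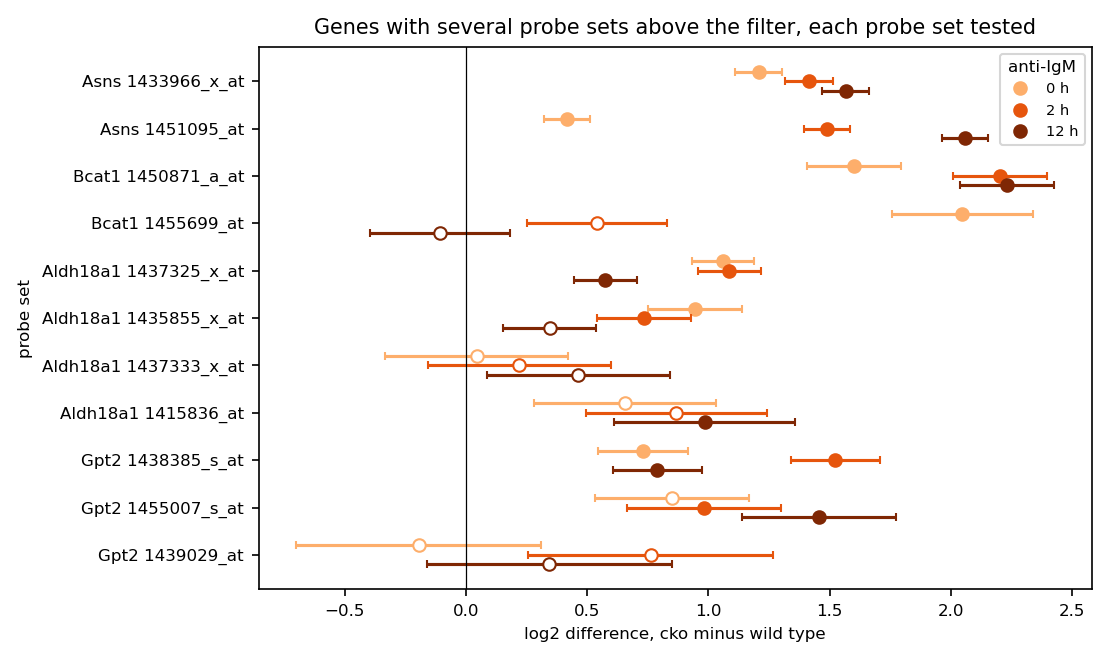
Log2 difference (cko minus wild type) at 0, 2 and 12 h for each probe set above the filter of the 4 genes with several, with bars of 1 SE and filled points at an adjusted p under 0.05 over all probe sets tested. Both probe sets of Asns are filled at each time, whereas the dimmer probe set of Bcat1 is filled at 0 h alone.

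Cth and Cbs, the pair of enzymes that carry sulfur to cysteine, were both dim. The single Cth probe set had its mean at the 39.5th percentile, just under the filter at the 40th. It read 4.4 and 2.4 on the cko arrays at 0 h, against 1.2 and 1.3 in wild type, and 38.0 and 26.6 in cko at 2 h, against 20.1 and 11.3 in wild type. At 12 h it read 140.0 and 120.7 in cko, against 2.6 and 15.5 in wild type, so that only the cko arrays at 12 h stood well clear of the others. In the fit without a filter over 18193 genes, the genotype difference was 2.59 ± 0.32 at 12 h (adjusted p = 2.6e-05, 33.8% of genes called there), with 0.17 ± 0.32 at 0 h and 0.61 ± 0.32 at 2 h not called. In that fit the 12 h response was larger in cko than in wild type by 2.42 ± 0.46 (adjusted p = 0.0012).

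Cbs was the least reproducible of the genes. Its brighter probe set read 68.4 and 83.7 on the cko arrays at 0 h, against 47.4 and 24.2 in wild type. By 2 h it read 62.1 and 7.8 in cko, against 47.1 and 42.4 in wild type, and at 12 h 43.7 and 44.7 in cko, against 128.5 and 54.1 in wild type. The SD between duplicates was 38.4 in cko at 2 h and 52.6 in wild type at 12 h, and the differences of 0.86 ± 0.47, -0.49 ± 0.47 and -0.74 ± 0.47 were not called. Without cko 2 h replicate 1 the 2 h value was -1.35 and was called. No neighbouring group levels of Cbs differed beyond their spread. Its other probe set, 1425623_a_at, lay under the filter, with group means of 4.7 to 16.4 in cko and 11.5 to 25.4 in wild type.

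Anti-IgM moved the enzymes in different ways. In cko cells at 2 h, Chac1, Asns, Bcat1 and Got1 rose and Aldh18a1 and Bcat2 fell, 4 higher and 2 lower of 8, where 23.8% of all genes were called higher, 39.2% lower and 63% in either direction. In wild-type cells at 2 h the same 4 rose and Aldh18a1, Bcat2 and Gpt2 fell, where 23.5% of all genes were called higher, 36.2% lower and 59.7% in either direction. At 12 h 6 rose and 1 fell in cko (25.9% and 33.1% of all genes, 58.9% together), and 5 rose and 0 fell in wild type (24.8% and 23.1% of all genes, 47.9% together). The falls of Bcat2 at 2 h, -0.60 ± 0.22 in cko and -0.66 ± 0.22 in wild type, were not called under median scaling (-0.28 and -0.47) or quantile normalization (-0.35 and -0.47). The call in cko was also lost when any 1 of the cko arrays at 0 h or 2 h was left out (-0.63 to -0.57). The call in wild type was lost on leaving out replicate 1 of its 0 h arrays (-0.61) or of its 2 h arrays (-0.61). The 2 h comparisons and the 12 h comparison in cko cross the actin control division, and the 12 h comparison in wild type does not.

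**Figure D4:**
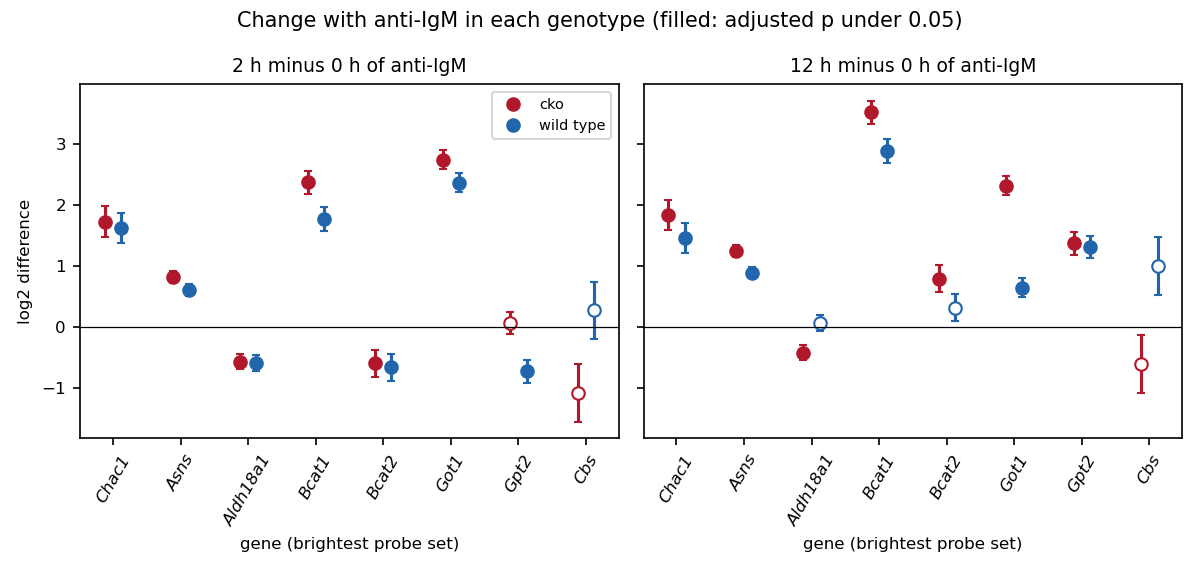
Log2 difference between 2 h (left) or 12 h (right) and 0 h of anti-IgM for the 8 tested genes, cko in red at the left of wild type in blue, with bars of 1 SE and filled points at an adjusted p under 0.05. Chac1, Asns, Bcat1 and Got1 lie above 0 in both genotypes at both times, and Got1 at 12 h is 2.31 in cko and 0.64 in wild type.

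Of the 4 differences between responses that were called, that of Got1 at 12 h alone held under each alternative run for it. Those of Gpt2 at 2 h, and of Asns and Aldh18a1 at 12 h, had adjusted p-values of 0.046, 0.046 and 0.045 and were lost under several. All 4 calls were made on the brightest probe set of the gene. None of the 4 was tried with averaged duplicates or the actin control term, since those fits hold no difference between responses. Counted over the 8 genes, 1 response was called larger in cko at 2 h (8.59% of all genes, 20.4% in either direction) and at 12 h 2 were larger and 1 smaller (18.8% and 24.4% of all genes, 43.2% together).

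Averaged over the 3 times, 7 of the 8 genes were higher in cko, where 21.3% of all genes were called higher and 47.8% in either direction, and Cbs was not called (-0.12 ± 0.27). The 7 differences ran from 0.67 ± 0.13 in Bcat2 to 2.58 ± 0.14 in Chac1. Over 0 h and 2 h alone, the times that do not cross the control division, the same 7 were called, from 0.39 ± 0.11 in Got1 to 2.48 ± 0.18 in Chac1 (36.7% of all genes called). In an additive model of genotype and time with a term for the actin control division, the same 7 were called (25.1% of all genes), with Got1 at 0.39 ± 0.13 (adjusted p = 0.039) in place of 0.89 ± 0.09. Beside the time terms, that term sets apart only cko at 12 h, so its genotype estimates again rest on 0 h and 2 h. It is therefore not a separate check, and the part of the control ratio was not tested. With duplicate arrays averaged into 1 value per group and an additive model of genotype and time, which leaves 2 residual degrees of freedom, 91 of 12190 genes (0.747%) were called for the genotype. Chac1 (2.58 ± 0.25, adjusted p = 0.0045), Bcat1 (2.01 ± 0.26, adjusted p = 0.013) and Asns (1.40 ± 0.23, adjusted p = 0.033) were among them, and the other 5 genes were not.

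Averaged over the genotypes, 4 members rose and 3 fell at 2 h, Gpt2 (-0.34 ± 0.13) among those that fell (25.9% of all genes called higher, 43.5% lower and 69.5% in either direction). The call of Gpt2 was lost under quantile normalization (-0.19), median scaling (-0.04), a pseudocount of 64 (-0.2), no filter (-0.34) and probe sets averaged (-0.04), among others. Its probe set 1455007_s_at rose instead (0.76 ± 0.22, called with every probe set tested). At 12 h 6 rose and 0 fell (27.8% of all genes called higher, 31.5% lower and 59.3% in either direction). With a term for the actin control division, 4 members rose and 1 fell at 2 h (38.6% of all genes called), and Aldh18a1 (-0.09) and Gpt2 (0) were no longer called. In that fit Got1 at 2 h was 1.07 in place of 2.55, Asns 0.45 in place of 0.71, and Bcat2 -1.08 in place of -0.63, all called. At 12 h 5 rose (41.8% of all genes called), Got1 was 0.74 in place of 1.48, and Bcat2 lost its call (0.32, adjusted p = 0.23). Both 2 h groups lie on one side of the division and both 0 h groups on the other. The size of the term comes only from the genotype difference at 12 h beyond that at 0 h and 2 h. The values of this fit are therefore not responses corrected for the control ratio. The 12 h call of Bcat2 was also lost with duplicates averaged (0.55, adjusted p = 0.30).

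The patterns of the members over the 6 group means were compared on the log2 scale, as a description of 6 points that share arrays and cultures across genes. Chac1 and Asns were most alike (Pearson r = 0.98), and Bcat1 followed Asns (r = 0.94) and Chac1 (r = 0.90). Bcat2 and Gpt2 formed a second pair (r = 0.91). Got1 and Bcat2 had an r of -0.06, and Cbs had its highest r with Bcat2 (0.28). Among all tested genes, the 5 most like Asns were 4632404H12Rik, Lcmt2, Coa6, Chac1 and Fam118b (r = 0.99 to 0.98). Those most like Chac1 were Lcmt2, Asns, Pinx1, Fam118b and 2500002B13Rik, and those most like Got1 were Supv3l1, Nop16, Pus1, Bzw2 and Tars (r of at least 0.9959). The gene nearest to Gpt2 was Eif4ebp1 (r = 0.99), that nearest to Bcat1 was Mphosph9 (r = 0.9976) and that nearest to Bcat2 was Eef1akmt2 (r = 0.9973).

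The other enzymes of the same pathways moved in both directions between the genotypes. Of 10 tested genes of glutathione synthesis and turnover, 0 were higher and 1 lower in cko at 0 h, 0 higher and 2 lower at 2 h, and 4 higher and 4 lower at 12 h. These calls were 10%, 20% and 80% of the list, where 32.3%, 28.5% and 51.3% of all genes were called. Their median differences were 0.04, -0.06 and -0.07. Gclm, the modifier subunit of the enzyme that starts glutathione synthesis, was lower in cko at 0 h (-0.86 ± 0.15) and 2 h (-1.36 ± 0.15) and higher at 12 h (1.63 ± 0.15), while glutathione synthetase Gss was lower at 12 h (-1.48 ± 0.13). The dipeptidase gene Cndp2 was lower in cko at 2 h (-0.85 ± 0.07) and 12 h (-1.47 ± 0.07).

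Of 10 tested enzymes of aspartate, glutamate, alanine and proline outside the members, 2 were higher and 3 lower in cko at 0 h, 3 and 1 at 2 h, and 2 and 3 at 12 h (50%, 40% and 50% of the list called). Prodh, which breaks proline down, was higher at 0 h (1.02 ± 0.22) and 2 h (1.25 ± 0.22). Got2, the mitochondrial partner of Got1, was lower in cko at all 3 times (-0.45 ± 0.06, -0.53 ± 0.06 and -0.52 ± 0.06). Of 15 tested genes of branched-chain amino acid breakdown, which acts after the aminotransferases, 2 were higher and 4 lower at 0 h, 2 and 3 at 2 h, and 5 and 2 at 12 h (40%, 33.3% and 46.7% of the list called), with Dbt (1.72 ± 0.11) and Hsd17b10 (1.68 ± 0.08) the largest at 12 h. Of 17 tested genes of the methionine cycle and sulfur amino acids, 2 were higher and 3 lower at 0 h, 1 and 3 at 2 h, and 2 and 4 at 12 h (29.4%, 23.5% and 35.3% of the list called).

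Of 10 tested regulators of the stress response, 5 were higher and 1 lower in cko at 0 h, 4 higher and 0 lower at 2 h, and 8 higher and 1 lower at 12 h. These calls were 60%, 40% and 90% of the list, where 32.3%, 28.5% and 51.3% of all genes were called, and the list's median differences were 0.42, 0.13 and 0.94. Atf4 differed by 0.60 ± 0.06, 0.70 ± 0.06 and 2.09 ± 0.06 at 0, 2 and 12 h. Ddit3, which codes for CHOP, was also higher in cko at each time (1.17 ± 0.09 at 0 h), and Trib3, a pseudokinase gene induced by both, differed by 3.73 ± 0.53, 3.54 ± 0.53 and 4.57 ± 0.53.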

How the data were processed

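Follicular B cell RNA of 12 samples was read on 1-colour Affymetrix whole-genome mouse arrays after 2 rounds of amplification, per the labels' protocols, and processed with GCOS 1.4, per the submitters' processing notes. The deposited intensity values are linear signals, scaled by the authors: a mean trimmed of 2% of values at each end came to 250 on every array. How probes were summarised is not stated. Groups came from sample titles.

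Of 45101 probe sets, 34945 had 1 symbol, 932 several and 9160 none, with 64 controls, and 99.4% of those with 1 symbol matched RefSeq by Entrez identifier. Signals were taken as log2(signal + 16). Probe sets whose mean did not exceed the 40th percentile (5.14) were dropped, and the brightest probe set stood for its gene. The 12190 genes were fitted in limma 3.58.1 (R 4.3.3), using a mean for each group, eBayes with an intensity trend, 12 two-sided contrasts and 6 residual degrees of freedom. The script was tested on simulated data. Alternatives were median scaling, quantile normalization, a pseudocount of 1 or of 64, a filter at the 60th percentile or none, no trend, every probe set, their mean, a replicate block, fits of just the groups in a comparison, averaged duplicates, a term for the actin control division and each array left out. Averaged duplicates and the control term were run in additive models, for the averages over times or genotypes only. The genotype difference without 12 h was added after seeing the data.

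The members and companion lists were chosen with earlier results of these data known. The text names all members with all probe sets, up to 3 called genes with the largest differences of a companion list in a contrast (the 12 h value of Got2 was added after it was seen), Atf4, Ddit3, Trib3 and Zfx, and genes among the 5 most like a member.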

Additional observations from a re-analysis of the deposited data

Results flagged for a closer look

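Gpt2, Asns, Got1 and Aldh18a1, 4 of the 8 tested members, had a response to anti-IgM that differed between the genotypes by the test of the difference itself. By time this was 1 of 8 at 2 h (12.5%, where 20.4% of all genes were called) and 3 of 8 at 12 h (37.5%, where 43.2% were). Neither share was above that of all genes. The 2 h response of Gpt2 was larger in cko by 0.79 ± 0.26 (log2, adjusted p = 0.046), with changes of 0.06 in cko and -0.73 in wild type, and was 0.50 with a pseudocount of 64 (adjusted p = 0.089). Its call was lost under most alternatives, and without any 1 of the 0 h and 2 h arrays other than wild-type 0 h replicate 1. The 12 h response of Asns was larger in cko by 0.36 ± 0.14 (adjusted p = 0.046) on its brighter probe set. On that brighter probe set of Asns, it was 0.78 under median scaling and 0.19 under quantile normalization (adjusted p = 0.31). Its call there was also lost with a pseudocount of 1, no filter, no intensity trend, every probe set, the replicate block, only the groups compared and most left-out arrays. With every probe set tested, the dimmer 1451095_at was called at 1.64 ± 0.13 (limma, adjusted p = 3.9e-07). With probe sets averaged it was 1 (adjusted p = 1.2e-05). The 12 h response of Got1 was larger in cko by 1.67 ± 0.22 (adjusted p = 3.3e-05). The 12 h response of Aldh18a1 was smaller in cko by 0.48 (difference -0.48 ± 0.18, adjusted p = 0.045). It was -0.06 under median scaling (adjusted p = 0.82) and -0.08 with probe sets averaged (adjusted p = 0.81), and its call was also lost with a pseudocount of 1, no filter, no intensity trend, the replicate block and most left-out arrays. The actin 5′ to 3′ control ratio moved with the 12 h differences (1.89% at 0 h and 19.0% at 12 h in cko, 3.30% and 2.19% in wild type), and its part in them was not tested.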

How the results depend on the processing

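Of 1656 values of the 8 genes over 12 contrasts and all alternatives, 1507 kept their direction and side of the threshold, 91 lost the call, 25 gained one, 31 turned sign with no call in either fit, and 2 turned sign with a call in one of them. When probe sets of a gene were averaged, the 12 h response of Aldh18a1 in cko was 0.03 and the difference between the 12 h responses of Bcat1 was -0.76. With duplicates averaged, 3 members in place of 7 were called for the genotype over the 3 times (0.747% of all genes in place of 47.8%). For the 2 h response over both genotypes it was also 3 members in place of 7 (33.9% of all genes in place of 69.5%). The count of 12 h responses that differed between genotypes, 3, became 1 with a pseudocount of 1 and 7 with a pseudocount of 64, where Cth passed the filter and 9 members were tested, and 1 to 4 with 1 array left out, being 1 without cko 0 h replicate 1 or cko 12 h replicate 2. The count at 2 h, 1, became 0 with no filter, no intensity trend, only the groups compared, quantile normalization or the replicate block. It also fell without some single arrays. At a pseudocount of 64 it stayed 1, with Bcat1 called in place of Gpt2. With every probe set tested it was 0 on the brightest probe set of each gene. In that fit the dimmer 1451095_at of Asns (1.07 ± 0.13) and 1455699_at of Bcat1 (-1.51 ± 0.41) were called at 2 h. In the main fit 20.4% of all genes were called at 2 h and 43.2% at 12 h, and the shares in the alternative fits are not given here. The filter at the 60th percentile left 6 members tested, and median scaling and no filter 9. The causes were not tested. No member was called lower in cko in a genotype comparison under any alternative, other than Cbs at 2 h without cko 2 h replicate 1 (-1.35).

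Same-numbered arrays did not deviate together (correlations of -0.01 to 0.01 over 15 pairs of groups), so no pairing by number was seen in the signals. Duplicates may be technical, so this cannot show whether the numbers pair the samples. With the replicate block, the differences between responses of Gpt2 at 2 h (0.79), Asns at 12 h (0.36) and Aldh18a1 at 12 h (-0.48) lost their calls, and Cbs gained 2, its 2 h response in cko (-1.09) and its 12 h difference between responses (-1.6). Median scaling moved the median of all genes from -0.32 to 0.02 for the 2 h response in cko and from -0.17 to 0.10 for the genotype at 12 h. Dim probe sets, such as those of Cbs, Cth and Bcat2, limit what 2 arrays a group can resolve.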

Other observations

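Among the companion genes of glutathione synthesis and turnover, Gclc, the catalytic subunit of glutamate-cysteine ligase, rose with anti-IgM at 2 h by 3.39 ± 0.07 in cko and 3.38 ± 0.07 in wild type on the log2 scale (limma, adjusted p = 1.75e-13 and 2.62e-13). At 12 h its rise was 2.45 ± 0.07 in cko and 1.25 ± 0.07 in wild type, and the difference between these responses was 1.20 ± 0.10 (adjusted p = 5.63e-07). Of 15 tested genes of branched-chain amino acid breakdown, 4 rose and 9 fell at 2 h in cko, and 2 rose and 8 fell in wild type, 86.7% and 66.7% of the list, where 63% of all genes were called in cko and 59.7% in wild type. Of 10 stress response regulators, 9 rose and 1 fell at 2 h in each genotype, against the same shares of all genes.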
